A study of Mus musculus with 9 samples.

Results

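Serpin family genes were followed in mouse colon organoids, which are cultures of colon epithelium grown as small hollow bodies in a gel. The labels define 3 groups of 3 arrays: untreated organoids at 0 weeks, and organoids kept for 12 weeks or for 60 weeks with unnamed reagents described as inflammatory. The serpin genes are all genes on the Agilent single-colour array whose probe carries a RefSeq accession belonging to a symbol that starts with Serpin. The genes described here by this rule are 59, with 74 probes, out of 20660 named genes with 27235 named probes. Of the Serpin symbols in the RefSeq table, Serpina16, Serpina1b, Serpina3d-ps, Serpina3e-ps, Serpina3g, Serpina3l-ps, Serpinb1-ps1, Serpinb9h and Serpine3 were not reached by this rule and were not analysed here. Strain, age, genotype and the number of animals or cultures behind the replicates are not given in the sources used here. No untreated culture of 12 or 60 weeks stands in the design, so effects of the reagents and of the weeks in culture cannot be told apart.

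A level is the log2 intensity of a gene's probe minus that array's 75th percentile over all non-control probes, so a level of 0 marks a probe as bright as that percentile. Probes differ in how brightly they bind, and levels are therefore compared for one gene across arrays and never between genes. Group values are means ± SD over n = 3 arrays. Changes are log2 fold changes ± SE from limma, called where the Benjamini-Hochberg adjusted p over all genes tested was under 0.05. A gene was tested where at least 1 group had its probe well above background on 2 or more of its 3 arrays.

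Serpins are a family of proteins that share one fold, and most of them inhibit serine proteases by an irreversible trap: the protease cuts an exposed loop of the serpin, the serpin snaps into a new shape, and the protease stays bound and distorted. The family is divided into clades named by letters. Clade A holds mostly secreted serpins of blood plasma such as alpha-1-antitrypsin, clade B holds serpins that mostly stay inside cells and protect them from their own or from foreign proteases, and the small clades C to I hold regulators of clotting, plasminogen activation, complement and collagen folding. In the mouse, several of these genes were copied many times in tandem, so the mouse has groups of very similar serpins where other mammals have a single gene.

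Serpinb7 had the largest fall among the serpins, and its clade B neighbour on chromosome 1, Serpinb2, was the only serpin called higher at 12 weeks and lower at 60 weeks, the latter a call lost in 9 of 18 alternatives. The 250 bases before their starts are shown for that reason. They are taken from RefSeq (GRCm38.p6), both on the plus strand, at chr1:107422439-107422688 for Serpinb7 and at chr1:107511173-107511422 for Serpinb2, where the table gives more than one start. Capitals mark matches to the TATA box (TATAAA), AP-1 (TGANTCA) and C/EBP (TTGCNNAA) letters on either strand.
Serpinb7: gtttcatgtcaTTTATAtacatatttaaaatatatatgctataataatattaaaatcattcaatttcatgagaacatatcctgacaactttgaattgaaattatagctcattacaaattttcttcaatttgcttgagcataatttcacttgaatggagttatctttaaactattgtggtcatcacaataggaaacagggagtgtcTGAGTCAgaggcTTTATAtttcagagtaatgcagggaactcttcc
Serpinb2: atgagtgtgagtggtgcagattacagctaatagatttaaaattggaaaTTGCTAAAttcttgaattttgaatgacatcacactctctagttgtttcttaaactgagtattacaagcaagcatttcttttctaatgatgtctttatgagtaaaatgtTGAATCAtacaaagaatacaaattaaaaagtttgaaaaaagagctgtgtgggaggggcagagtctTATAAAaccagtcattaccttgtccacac

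The Serpinb7 sequence held an AP-1 match at positions -45 to -39 relative to the start and a TATA match, read on the other strand, at -33 to -28. In the Serpinb2 sequence an AP-1 match lay at -94 to -88 and a TATA match at -29 to -24. AP-1 is a family of dimeric transcription factors of Fos and Jun proteins. A match is a run of letters, and binding was not measured.

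An AP-1 match lay before 9 of the 24 tested serpin genes that have a promoter in the table. By promoter it was 10 of their 29, with the same Serpinb2 match counted for more than 1 start. Over all serpin genes described here, tested or not, it was 11 of 58 promoters. Of all 32851 promoters of this length, whether or not their gene was tested, 6.75% held one. By position, 6 of the 7 tested genes of the chromosome 1 cluster had a match (all but Serpinb3c), as had 3 of the 7 on chromosome 12 with a promoter in the table, and 0 of the 8 on chromosome 13. Each match is shown in capitals with 11 bases on either side, to give the letters behind these counts. The chromosome 1 windows are on the plus strand, at chr1:106861024-106861052 for Serpinb5, chr1:107362122-107362150 and chr1:107362227-107362255 for Serpinb11, chr1:107422633-107422661 for Serpinb7, chr1:107511318-107511346 for Serpinb2, chr1:107528938-107528966 for Serpinb10 and chr1:107589972-107590000 for Serpinb8. Those of chromosome 12 are on the minus strand, at chr12:103863835-103863863 for Serpina1a, chr12:103905172-103905200 for Serpina1c and chr12:103773845-103773873 for Serpina1d.
Serpinb5: caagttgggccTGAATCAtgtcttccaat
Serpinb11 (far): taagtatagtgTGATTCAgaaagcacagt
Serpinb11 (near): aggtgaagagcTGAATCAtaacaacacag
Serpinb7: cagggagtgtcTGAGTCAgaggctttata
Serpinb2: gagtaaaatgtTGAATCAtacaaagaata
Serpinb10: gcttgtgaaagTGAATCAagggtggggct
Serpinb8: tgtgggaagtgTGAGTCAcagagtgttca
Serpina1a: tagaggcaatgTGACTCAggacaccagac
Serpina1c: tagaggccatgTGACTCAggacaccagac
Serpina1d: tagaggccatgTGACTCAggacaccagac

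The windows of Serpina1c and Serpina1d were identical. Of the other motifs searched, the TATA box stood in 6 of the 29 promoters of tested serpins and in 12.4% of all promoters, and C/EBP in 6 and 9.56%. STAT (TTCNNNGAA) stood in 5 and 7.02%, and NF-kB in 0 and 1.41%. Each motif was searched on both strands, and a base could belong to several motifs.

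Each array had 49.2% to 52.8% of its probes well above background, and 14037 genes were tested. The 12 weeks replicate 2 array stood apart: it correlated across genes at 0.978 and 0.977 with the other 12 weeks arrays, which correlated at 0.992 with each other (genes are not independent replicates). The median SD of the tested serpins was 0.17 at 0 weeks, 0.49 at 12 weeks and 0.29 at 60 weeks, against 0.11, 0.21 and 0.15 over all tested genes. The arrays also differ by place on the slides: all 0 weeks arrays shared slide row 1 with 12 weeks replicate 1, row 2 held 12 weeks replicates 2 and 3 with 60 weeks replicates 1 and 2, and 60 weeks replicate 3 lay on another slide. Within rows, 12 of the 12 serpin genes called at 12 against 0 weeks and 9 of the 9 called at 60 against 12 weeks kept their sign, which for the 12 and for 8 of the 9 follows from groups that did not overlap, and row 1 held a single 12 weeks array. With slide row as a block 8, 4 and 5 serpins were called at 12 against 0, 60 against 0 and 60 against 12 weeks. Over all 14037 genes the same fit called 4474, 1392 and 3469. The 60 and 0 weeks arrays share no row. The colon epithelium of the label was present by its markers, with 12 of 12, among them Epcam, Vil1 and Cdx2, above background in every group.

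Detection differed by clade. Of the 59 serpin genes, 28 were tested: 10 of 23 in clade A, 16 of 27 in clade B, 1 gene each in clades D and E, and 0 of 7 in clades C, F, G, H and I. On all 3 arrays of a group, 24 serpin genes were well above background at 0 weeks, 25 at 12 weeks and 21 at 60 weeks, and 21 were so on all 9 arrays. In clade A these were 8, 9 and 7 genes and in clade B 16, 15 and 14. Another 28 genes were above background on no array, and Serpinb9g, Serpinc1 and Serping1 on 1 array each. Levels of the 28 genes ran from -7.47 to -4.31, and for these only a bound on the level exists.

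**Figure D1:**
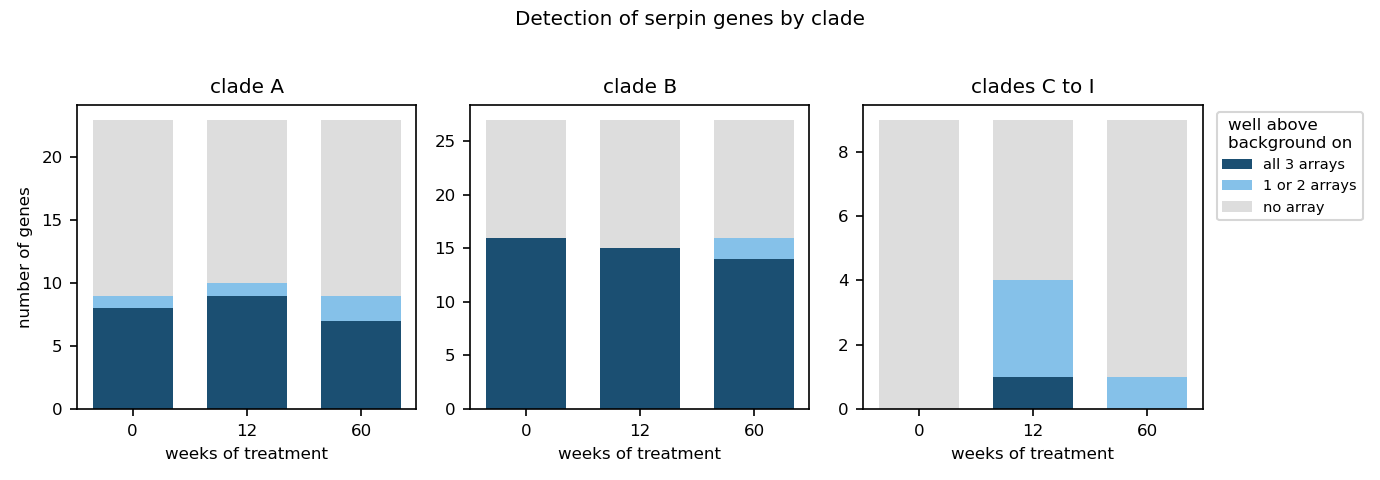
Number of serpin genes (y axis) in clade A, clade B and clades C to I that were well above background on all 3 arrays, on 1 or 2 arrays or on no array of each group (x axis, weeks of treatment). Clade B held 16 genes on all 3 arrays at 0 weeks and 14 at 60 weeks. In clades C to I the part of the bar above background on any array was largest at 12 weeks.

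At 12 weeks the tested serpins changed in both directions. Serpind1, Serpinb2 and Serpine2, regulators of plasminogen activation and thrombin, rose, as did Serpina1d, Serpinb1a and Serpinb1c, while Serpinb7, Serpina9, Serpinb10, Serpinb11, Serpinb1b and Serpina3h fell. Of the 28 tested genes 12 were called, 6 higher and 6 lower, where 41.8% of all tested genes were called (19.1% higher, 22.7% lower), so the share of serpins called was near that of all genes. Called and at least 2-fold were 9 serpins, where 13.5% of all genes were (4 higher against 7.54%, 5 lower against 5.92%); in these counts a gene below background on all arrays of a group enters at its bound, the smallest fold over the level that counts as above background, so Serpina1d and Serpine2 are not among them. The median change was -0.06 for the serpins and -0.06 over all genes, and the median size of the change, without its sign, 0.76 and 0.37, or 0.52 and 0.36 with such genes at their bound.

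At 60 weeks against 0 weeks, 7 of the 28 tested serpins were called. These were Serpina9, Serpinb10, Serpinb11, Serpinb7, Serpinb2, Serpinb5 and Serpinb6e, and they fell. The background was 32.8% of all genes called, 16.7% higher and 16.1% lower. At least 2-fold lower were 4 of these serpins, where 10.4% of all genes were called and at least 2-fold (5.91% higher, 4.53% lower). The median change was -0.35 for the tested serpins and -0.04 for all genes.

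Between 12 and 60 weeks 1 serpin, Serpinb1b, rose and 8 fell. The 8 were Serpina1a, Serpina1d, Serpinb1a, Serpinb2, Serpinb6e, Serpinb7, Serpind1 and Serpine2. Of all genes 38.3% were called, 20.7% higher and 17.6% lower. At least 2-fold were 5 of the serpins, against 11.3% of all genes (1 higher against 5.21%, 4 lower against 6.09%). The median change was -0.37 (-0.36 with genes lacking a measured fold set to their bound), against 0.02. Comparisons that share a group share its arrays, so the counts of one do not stand as separate evidence for another.

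The 3 arrays of one group all lay beyond those of the other for 13 serpins at 12 against 0 weeks, 6 higher and 7 lower, where 54.6% of all genes were so placed (24.9% higher, 29.7% lower). At 60 against 0 weeks this held for 2 higher and 8 lower serpins, against 56.5% of all genes (27.5% and 28.9%), and at 60 against 12 weeks for 1 higher and 8 lower, against 47.3% (25.4% and 21.9%). In all, 15 serpins were called in at least 1 comparison. The matching share over all genes was not computed, so this count has no background to be read against. The size of a change in a dim gene depended on the background correction. With normexp correction, which adds an offset of 50 and so compresses low levels, Serpind1 changed by 1.56 at 12 against 0 weeks and by -1.41 at 60 against 12 weeks, Serpine2 by 0.52 and -0.24, and Serpinb2 by 1.70 and -1.97. In the same setting Serpinb10 changed by -1.12 at 12 weeks and by -1.29 at 60 weeks against 0 weeks, Serpinb1b by -0.60 and then 0.63, and Serpina1d by 0.46 and then -0.40. Serpinb7 and Serpina1a changed by -1.80 and -1.17 from 12 to 60 weeks, and with the deposited value table Serpina1a changed by -1.56. Of these, the Serpina1d changes and the fall of Serpine2 were not called with normexp correction, nor was the change of Serpinb2 at 60 against 0 weeks, then -0.27.

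**Figure D2:**
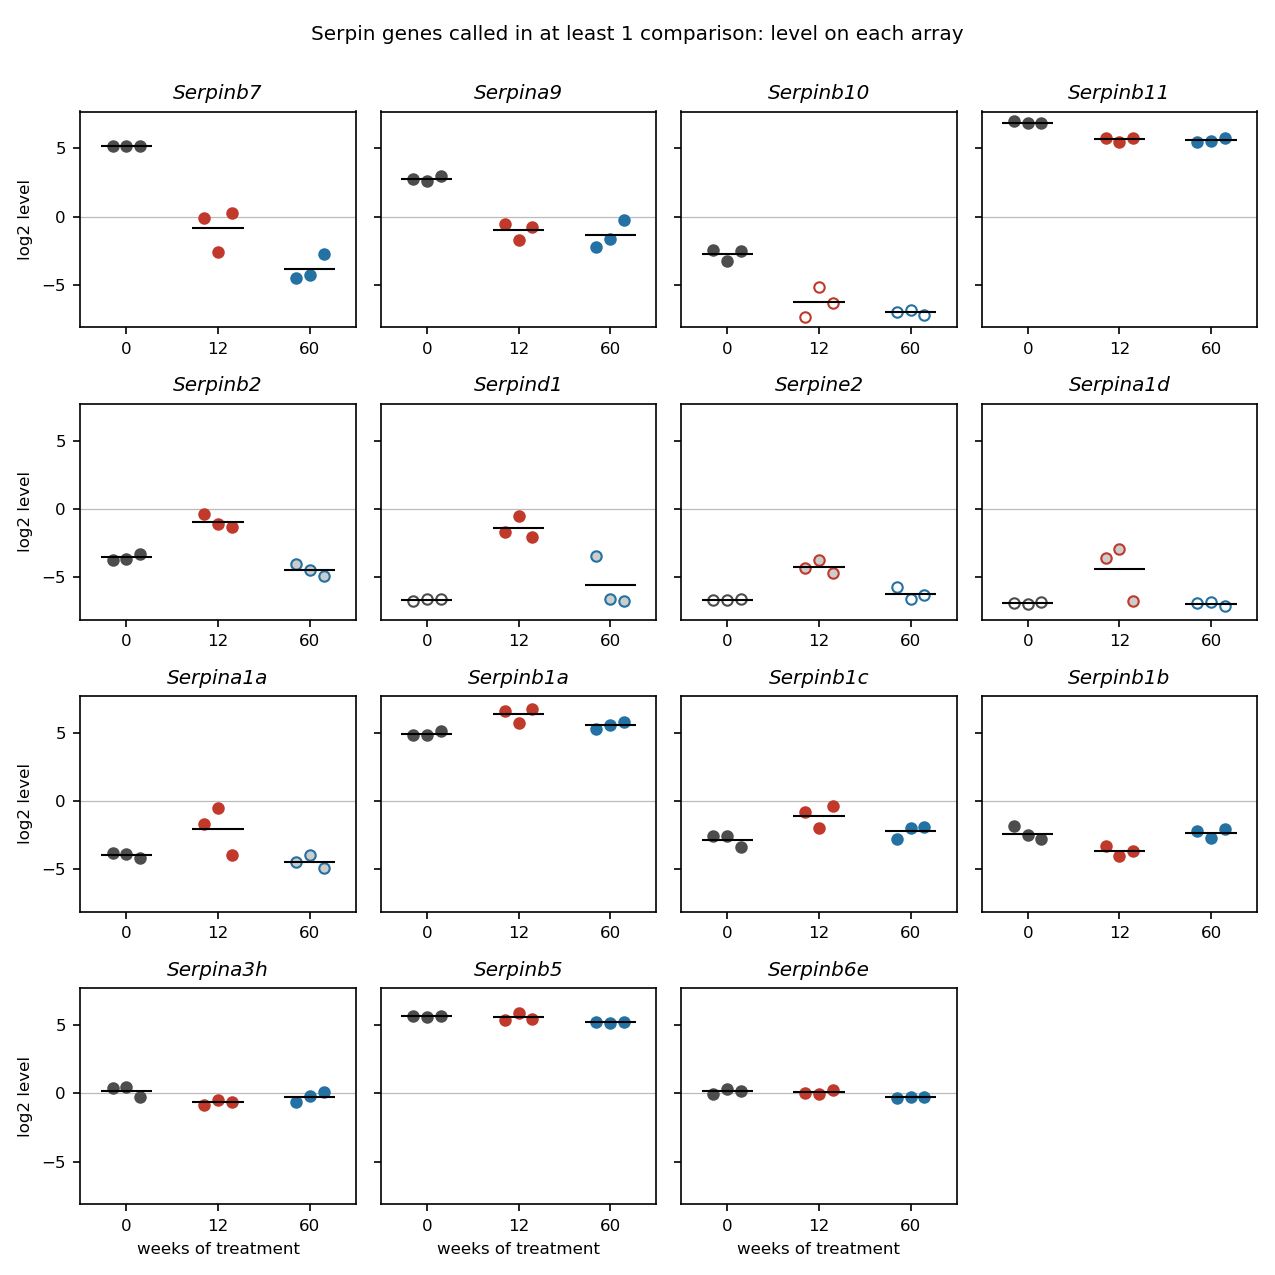
Level (y axis, log2 relative to the array's 75th percentile) on each array at 0, 12 and 60 weeks (x axis) of the 15 serpin genes called in at least 1 comparison, with a line at the group mean. Filled points mark groups with all 3 arrays well above background, grey points groups with 1 or 2 such arrays, and open points groups with 0. Serpinb7 stood at 5.14 to 5.18 at 0 weeks and between -4.52 and -2.74 at 60 weeks.

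Serpine2, protease nexin 1, inhibits thrombin and urokinase at cell surfaces. It stood at -6.71, -6.70 and -6.63 at 0 weeks, at -4.34, -3.71 and -4.72 at 12 weeks, then at -5.71, -6.62 and -6.29 at 60 weeks, and it was well above background only on 2 of the 12 weeks arrays. For such genes only a bound is given, with the dim group set on each array to the lowest level called well above background, or to the gene's own level where higher. Serpine2 was at least 1.40-fold higher at 12 than at 0 weeks (limma adjusted p = 0.000366) and at least 1.43-fold lower at 60 than at 12 weeks (limma adjusted p = 0.0015). The latter call was lost with normexp background correction (adjusted p = 0.219).

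Serpind1 is heparin cofactor II, a thrombin inhibitor that the liver secretes into plasma. It was at -6.73, -6.62 and -6.61 at 0 weeks, well above background on 0 arrays, and at -1.69, -0.52 and -2.09 at 12 weeks, above background on 3. At 60 weeks it read -3.45, -6.59 and -6.75, with 1 array above background. The 12 weeks arrays thus lay far from both other groups, and a single 60 weeks array, replicate 1, stood between. The gene was at least 9.90-fold higher at 12 than at 0 weeks (limma adjusted p = 0.00159) and it was lower at 60 than at 12 weeks (limma adjusted p = 0.00562), calls that held in every alternative run. With the 60 weeks arrays below background set as in the bounds, the fall was at least 7.62-fold, and it rests on a group with 1 measured array.

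Clade B serpins lie in a pair of tandem clusters. On chromosome 1 all 12 annotated serpins of the cluster are on the array, in the order Serpinb5, Serpinb12, Serpinb13, Serpinb3a, Serpinb3d, Serpinb3b, Serpinb3c, Serpinb11, Serpinb7, Serpinb2, Serpinb10 and Serpinb8, and 7 were tested. Of the 7, 1 rose and 3 fell at 12 weeks, where 19.1% and 22.7% of all tested genes did, and 5 were lower at 60 than at 0 weeks, against 16.1%. The median change over all tested genes of chromosome 1 was -0.12 at 12 weeks and -0.14 at 60 weeks, against -0.06 and -0.04 over all genes. Its part in the serpin changes was not tested.

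Serpinb7, or megsin, was first described in kidney mesangial cells and is also a serpin of the upper epidermis. Its level was 5.18, 5.14 and 5.18 at 0 weeks, -0.13, -2.57 and 0.24 at 12 weeks, then -4.52, -4.27 and -2.74 at 60 weeks, above background on all 9 arrays. The 3 groups did not overlap, although 12 weeks replicate 2 came close to 60 weeks replicate 3. The level fell by 5.99 ± 0.73 at 12 weeks (63.4-fold lower, limma adjusted p = 0.000434) and fell by 9.01 ± 0.73 at 60 weeks (516-fold lower, limma adjusted p = 5.44e-05). Between 12 and 60 weeks it dropped by 3.03 ± 0.73 (8.14-fold lower, limma adjusted p = 0.0129), and no call was lost in any alternative.

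Serpinb2, plasminogen activator inhibitor 2, lies next to Serpinb7 and is known as one of the most inducible genes of activated macrophages and keratinocytes. It read -3.71, -3.65 and -3.29 at 0 weeks, -0.41, -1.12 and -1.32 at 12 weeks, then -4.03, -4.51 and -4.91 at 60 weeks, where 2 of 3 arrays were above background. The 12 weeks arrays were the highest and the 60 weeks arrays the lowest, with no overlap. The rise at 12 weeks was 2.60 ± 0.29 (6.05-fold higher, limma adjusted p = 0.000255), and from 12 to 60 weeks the level fell by 3.53 ± 0.29 (11.6-fold lower, limma adjusted p = 7.15e-05). Against 0 weeks the 60 weeks level fell by 0.93 ± 0.29 (limma adjusted p = 0.0376), which was not called in 9 of 18 alternatives, among them the fits without any one of the 0 weeks arrays or without 60 weeks replicate 2 or 3. With slide row as a block it was 0.10 higher (adjusted p = 0.884).

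Serpinb10, or bomapin, is otherwise known from blood-forming cells. It stood at -2.42, -3.29 and -2.55 at 0 weeks, above background on all 3 arrays, at -7.38, -5.17 and -6.31 at 12 weeks, then at -6.98, -6.84 and -7.21 at 60 weeks, above background on 0 arrays of either group. It was at least 4.50-fold lower at 12 weeks (limma adjusted p = 0.000891) and at least 4.04-fold lower at 60 weeks (limma adjusted p = 0.000399). Both treated groups lay wholly below the untreated one.

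Serpinb11 (epipin) kept a high signal in every group while it fell. Its level was 6.98, 6.84 and 6.82 at 0 weeks, 5.73, 5.47 and 5.77 at 12 weeks, then 5.49, 5.54 and 5.78 at 60 weeks. The 0 weeks arrays lay above all others, and the treated groups overlapped. It fell by 1.22 ± 0.12 at 12 weeks (2.33-fold lower, limma adjusted p = 0.000147) and fell by 1.27 ± 0.12 at 60 weeks (2.42-fold lower, limma adjusted p = 0.000146), and its change of -0.05 ± 0.12 between 12 and 60 weeks was not called (limma adjusted p = 0.768).

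Serpinb5, maspin, is an epithelial serpin that does not act as a protease inhibitor. Its mean level was 5.64 ± 0.02 at 0 weeks, 5.58 ± 0.27 at 12 weeks and 5.20 ± 0.02 at 60 weeks, a fall of 0.44 ± 0.13 from 0 to 60 weeks (limma adjusted p = 0.0357). That call was lost in 10 of 20 alternatives, including every fit without one of the 0 or 60 weeks arrays and that with slide row as a block, where the change was -0.71. Serpinb8, a cytoplasmic inhibitor of furin, was at 4.55 ± 0.16, 3.98 ± 0.43 and 4.23 ± 0.19. Its change of -0.56 at 12 weeks was not called (limma adjusted p = 0.0619) and was called at -0.73 without 12 weeks replicate 2 (limma adjusted p = 0.0196). Serpinb3c, of the squamous cell carcinoma antigen group, was at -3.36 ± 0.27, -3.46 ± 0.53 and -3.76 ± 0.25 and was not called, and its neighbours Serpinb3a, Serpinb3b, Serpinb3d, Serpinb12 and Serpinb13 were above background on no array.

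**Figure D3:**
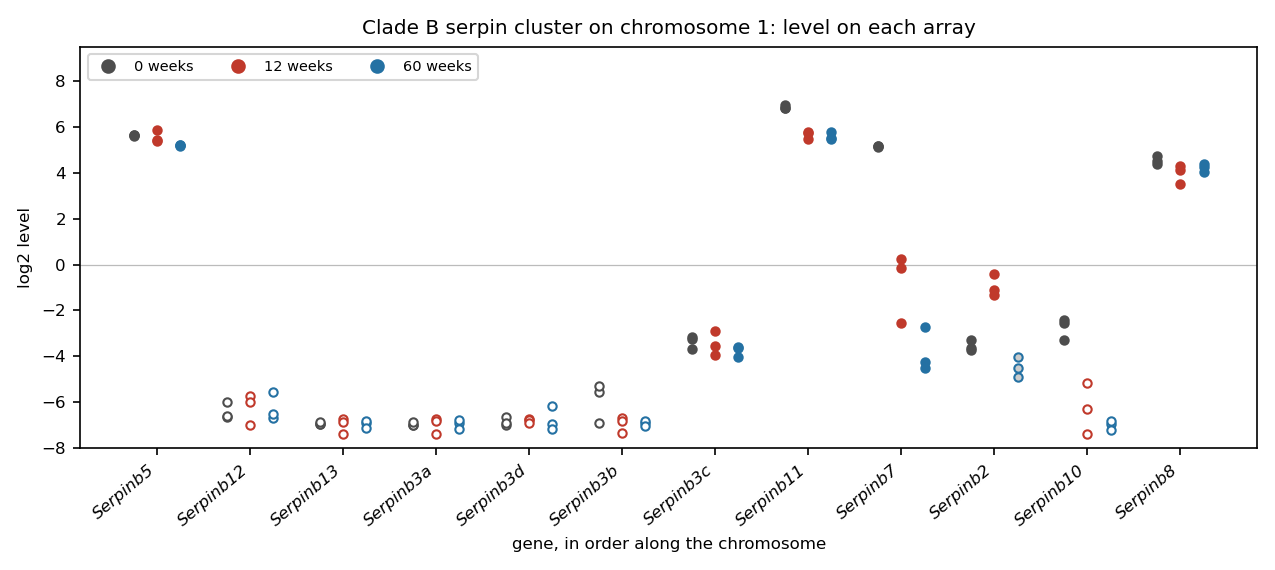
Level (y axis, log2 relative to the array's 75th percentile) on each array of the 12 clade B serpins of chromosome 1, in chromosomal order (x axis), coloured by group and filled as in the plot of levels by gene. Levels can be read across arrays for a gene and not between genes. Serpinb7 falls from 0 to 12 to 60 weeks, its neighbour Serpinb2 is highest at 12 weeks, and Serpinb10 is above background at 0 weeks alone.

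In the clade B cluster of chromosome 13, 15 of 17 annotated serpins are on the array and 9 were tested. Here 2 rose and 1 fell at 12 weeks (19.1% and 22.7% of all genes), 1 fell from 0 to 60 weeks (16.1%), and 1 rose and 2 fell from 12 to 60 weeks (20.7% and 17.6%). The median change over the tested genes of that chromosome was -0.19 at 12 weeks and -0.17 at 60 weeks. The cluster holds the mouse copies of SERPINB1, SERPINB6 and SERPINB9, inhibitors of the granule proteases of neutrophils and lymphocytes.

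Serpinb1a, the mouse gene closest to the human leukocyte elastase inhibitor, read 4.81, 4.88 and 5.15 at 0 weeks, 6.59, 5.72 and 6.76 at 12 weeks, then 5.31, 5.55 and 5.77 at 60 weeks. The 12 and 60 weeks arrays lay above the 0 weeks arrays and overlapped each other through 12 weeks replicate 2. The rise at 12 weeks was 1.41 ± 0.26 (2.65-fold higher, limma adjusted p = 0.00356). The fall of 0.81 from 12 to 60 weeks (-0.81 ± 0.26, limma adjusted p = 0.0393) was lost in 10 of 20 alternatives, among them the fits without any one 0 weeks array, without 12 weeks replicate 1 or 3 and without 60 weeks replicate 1 or 2.

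Its copies Serpinb1c and Serpinb1b went opposite ways at 12 weeks. Serpinb1c was at -2.56, -2.58 and -3.38 at 0 weeks, -0.77, -2.0 and -0.39 at 12 weeks, then -2.80, -1.93 and -1.90 at 60 weeks, a rise of 1.79 ± 0.44 at 12 weeks (3.46-fold higher, limma adjusted p = 0.0128). Serpinb1b was at -1.80, -2.50 and -2.80 at 0 weeks, -3.28, -3.98 and -3.65 at 12 weeks, then -2.17, -2.70 and -2.04 at 60 weeks. The 12 weeks arrays of Serpinb1b lay below all others, and those of Serpinb1c above all 0 weeks arrays. Serpinb1b fell by 1.27 ± 0.30 at 12 weeks (2.41-fold lower, limma adjusted p = 0.0099) and was 1.33 ± 0.30 higher at 60 than at 12 weeks (2.52-fold, limma adjusted p = 0.00925), ending 0.07 ± 0.30 from its untreated level. With slide row as a block the 12 weeks calls of Serpinb1c and Serpinb1b were lost (adjusted p = 0.0617 and 0.135).

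The Serpinb6 copies, intracellular inhibitors of cathepsin G and related proteases, changed little. Serpinb6a stood at 7.70 ± 0.11, 7.65 ± 0.04 and 7.55 ± 0.06 at 0, 12 and 60 weeks, and Serpinb6c at 7.19 ± 0.11, 7.13 ± 0.05 and 7.06 ± 0.05. Neither was called, nor was Serpinb6b, at 4.85 ± 0.06, 4.98 ± 0.76 and 4.88 ± 0.03. Serpinb6b read 5.67, 4.17 and 5.09 on the 12 weeks arrays. Without replicate 2, the lowest of them, it was 0.54 higher at 12 than at 0 weeks (limma adjusted p = 0.0241). Serpinb6d was at 0.16 ± 0.17, 0.11 ± 0.21 and -0.04 ± 0.11 and was not called.

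Serpinb6e had means of 0.16 ± 0.17, 0.07 ± 0.15 and -0.29 ± 0.07. It fell by 0.45 ± 0.12 from 0 to 60 weeks (limma adjusted p = 0.0227) and fell by 0.36 ± 0.12 from 12 to 60 weeks (limma adjusted p = 0.0454). The calls were lost in 4 and 13 of 19 alternatives, the first without 0 weeks replicate 2 or 3 or 60 weeks replicate 1, and the second without 0 weeks replicate 2 or 3, 12 weeks replicate 1 or 3 or any one 60 weeks array, among others. Serpinb6d and Serpinb6e are near copies, as are the members of the Serpina1 and Serpinb1 groups, and a probe of one may also bind RNA of another; probe sequences were not used here, so the values of single copies are uncertain.

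Serpinb9, which protects cells from granzyme B, read 1.47, 1.20 and 1.16 at 0 weeks, 1.73, -0.85 and 0.93 at 12 weeks, then -0.23, -0.35 and 0.12 at 60 weeks. All 60 weeks arrays lay below all 0 weeks arrays, and 12 weeks replicate 2 lay below every other array. The change of -1.43 ± 0.55 at 60 against 0 weeks was not called (limma adjusted p = 0.0787). Without 12 weeks replicate 2, which enters that test through the shared spread, it was called at the same size (limma adjusted p = 0.00196). The further copies Serpinb9b, Serpinb9c, Serpinb9d, Serpinb9e and Serpinb9f were above background on no array.

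Clade A serpins lie in 1 cluster on chromosome 12, apart from Serpina7 on the X chromosome. Of the 28 annotated serpins of the cluster 22 are on the array and 10 were tested, with 1 higher and 2 lower at 12 weeks (19.1% and 22.7% of all genes), 1 lower at 60 than at 0 weeks (16.1%) and 2 lower at 60 than at 12 weeks (17.6%). The chromosome's tested genes had a median change of 0.23 at 12 weeks and 0.22 at 60 weeks, against -0.06 and -0.04 over all genes. Whether this shift bears on the serpins there was not tested.

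Serpina9 (centerin), known from germinal-centre B cells, had the largest fall of the clade. It was at 2.72, 2.59 and 2.95 at 0 weeks, at -0.54, -1.72 and -0.79 at 12 weeks, then at -2.23, -1.67 and -0.22 at 60 weeks, above background on all 9 arrays. Every treated array lay below every untreated one, and the treated groups overlapped. It fell by 3.77 ± 0.50 at 12 weeks (13.7-fold lower, limma adjusted p = 0.000653) and fell by 4.13 ± 0.50 at 60 weeks (17.5-fold lower, limma adjusted p = 0.000483), and the difference of -0.36 ± 0.50 between them was not called (limma adjusted p = 0.6).

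The Serpina1 genes are mouse copies of alpha-1-antitrypsin, the main plasma inhibitor of neutrophil elastase. Serpina1a read -3.77, -3.84 and -4.15 at 0 weeks, -1.68, -0.50 and -3.96 at 12 weeks, then -4.49, -3.97 and -4.90 at 60 weeks. Serpina1c read -3.86, -3.89 and -5.47, then -1.86, -0.53 and -4.07, then -4.39, -3.44 and -4.55. Serpina1d read -6.89, -6.96 and -6.85, then -3.60, -2.93 and -6.76, then -6.93, -6.81 and -7.09, above background only on 2 of the 12 weeks arrays. The shared feature of these probes is that 12 weeks replicates 1 and 2 were high and replicate 3 lay near the levels of the other groups. The other probe of Serpina1a differed. It read -4.99, -4.34 and -5.15 at 0 weeks and -4.51, -3.60 and -4.22 at 12 weeks, so replicate 3 lay above replicate 1 and above the 0 weeks arrays. The probes of Serpina1a thus disagree on the size and spread of the 12 weeks level.

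With that spread, few of these differences were called. Serpina1d was at least 1.24-fold higher at 12 than at 0 weeks (limma adjusted p = 0.042) and at least 1.26-fold lower at 60 than at 12 weeks (limma adjusted p = 0.0423), and Serpina1a fell by 2.40 ± 0.74 from 12 to 60 weeks (limma adjusted p = 0.0332). These calls were lost in 13, 14 and 12 of 19 alternatives, including each fit that left out an array other than 12 weeks replicate 3. At 12 against 0 weeks Serpina1a differed by 1.88 ± 0.74 and Serpina1c by 2.25 ± 0.84, and neither was called (limma adjusted p = 0.0721 and 0.0614).

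Serpina1e stood at -3.46 ± 0.25, -3.28 ± 0.76 and -4.04 ± 0.62 and was not called, while its other probe had means of -4.47, -2.84 and -4.84, so its probes disagree on the size of the 12 weeks level. Serpina1f was at -3.26 ± 0.16, -3.44 ± 0.23 and -3.69 ± 0.45 and was not called in any comparison. Serpina3h, a copy of the alpha-1-antichymotrypsin group, was read by a probe assigned to a RefSeq transcript of the non-coding type. It fell from 0.20 ± 0.40 to -0.64 ± 0.17 at 12 weeks (-0.84 ± 0.24, limma adjusted p = 0.0222). That call was lost in 5 of 19 alternatives, namely with slide row as a block and without 0 weeks replicate 1 or 2 or 12 weeks replicate 1 or 3.

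Serpina3b, at -1.51 ± 0.11, -1.65 ± 0.11 and -1.72 ± 0.37, was called in no comparison. The same held for Serpina11, at -1.25 ± 0.22, -1.56 ± 0.09 and -1.66 ± 0.33. Serpina10, the protein Z-dependent inhibitor of clotting factor X, was at -3.77 ± 0.13, -3.40 ± 0.44 and -3.80 ± 0.23 and was not called either.

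The rest of clade A was above background on no array: Serpina3a, Serpina3c, Serpina3f, Serpina3i, Serpina3j, Serpina3k, Serpina3m and Serpina3n of the antichymotrypsin group, Serpina4-ps1, Serpina5 (protein C inhibitor), Serpina6 (the corticosteroid-binding globulin), Serpina7 (the thyroxine-binding globulin) and Serpina12 (vaspin). None of the genes of the remaining small clades passed the filter. Serpinf1 (pigment epithelium-derived factor), Serpinf2 (alpha-2-antiplasmin), Serpinh1 (the collagen chaperone HSP47), Serpini1 (neuroserpin) and Serpini2 were above background on no array. Serpinc1 (antithrombin) and Serping1 (the C1 inhibitor of complement) were each above background on 1 of the 12 weeks arrays. At this sensitivity no change could be measured for these genes, which does not show that their RNA was absent.

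**Figure D4:**
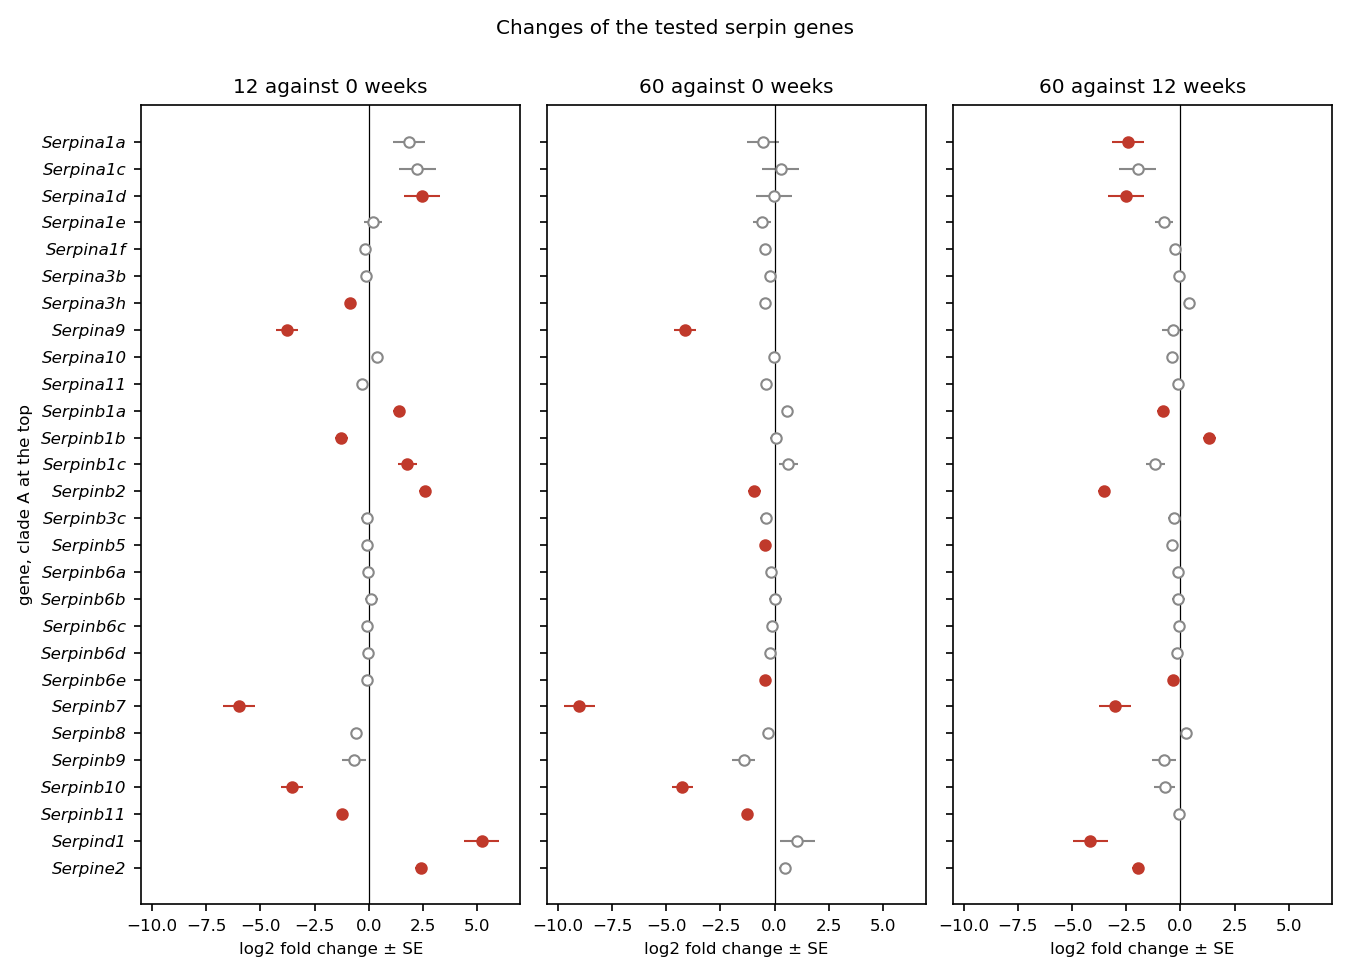
Log2 fold change ± SE (x axis) of the 28 tested serpin genes (y axis, clade A at the top) in the 3 comparisons. Filled red points have a limma adjusted p under 0.05 and open grey points do not, and for Serpinb10, Serpind1, Serpine2 and Serpina1d a change from or to a group below background is a fitted value with no measured fold. Serpinb7 lies farthest to the left at 60 against 0 weeks (-9.01), and Serpind1 farthest to the right at 12 against 0 weeks.

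Of 33 tested proteases that serpins act on, 9 were higher and 7 lower at 12 than at 0 weeks, where 19.1% and 22.7% of all genes were. At 60 against 0 weeks the counts were 10 and 7 (16.7% and 16.1% of all genes), and at 60 against 12 weeks 9 and 7 (20.7% and 17.6%). The list's median change was 0.05, -0.18 and -0.01. Gzmm, granzyme M, was 40.6-fold lower at 12 than at 0 weeks and 18.8-fold higher at 60 than at 12 weeks. Klk10 was 2.13-fold lower at 12 weeks and 2.69-fold lower at 60 weeks than at 0 weeks, Ctsl (cathepsin L) 2.07-fold higher at 12 weeks, and Klk6 7.26-fold higher at 60 than at 0 weeks. Plat, the tissue plasminogen activator, was 5.14-fold higher at 60 than at 0 weeks. Prss1 (trypsin) was at least 2.76-fold higher at 12 than at 0 weeks and at least 2.82-fold lower at 60 than at 12 weeks. Htra1 was at least 8.98-fold lower at 60 than at 0 weeks and at least 5.12-fold lower than at 12 weeks, and Tmprss11e was 11.3-fold higher at 60 than at 12 weeks. The limma adjusted p of these proteases was at most 0.000265. Plg (plasminogen), F2 (prothrombin), Gzmb and Prtn3 were above background on no array.

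Of 24 tested receptors, cofactors and clients of serpins, 2 were higher and 11 lower at 12 than at 0 weeks (19.1% and 22.7% of all genes), 5 and 3 at 60 against 0 weeks (16.7% and 16.1%), and 11 and 2 at 60 against 12 weeks (20.7% and 17.6%). The list's median change was -0.36, 0.09 and 0.45, against -0.06, -0.04 and 0.02 over all genes. Plaur, the urokinase receptor, was 3.30-fold higher at 12 weeks, where Col4a5 was 5.67-fold and Sorl1 2.17-fold lower and Col1a1 at least 3.15-fold lower. At 60 against 0 weeks Hspg2 (perlecan) was 4.50-fold and Vldlr 2.19-fold higher, and Lrp1, an endocytic receptor for serpin-protease complexes, 3.24-fold and Col4a5 2.40-fold lower. From 12 to 60 weeks Hspg2 was 4.22-fold, Col18a1 2.72-fold and Col1a1 at least 3.41-fold higher, and Lrp8 2.34-fold lower. The limma adjusted p of these genes was at most 0.00914.

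Of 16 tested protease inhibitors of other families, 6 were higher and 1 lower at 12 than at 0 weeks (19.1% and 22.7% of all genes), 2 and 4 at 60 against 0 weeks (16.7% and 16.1%), and 1 and 5 at 60 against 12 weeks (20.7% and 17.6%). Their median change was 0.14, -0.12 and -0.33. Timp3 (a metalloprotease inhibitor), Stfa3 (a stefin) and Slpi (an elastase inhibitor) were 21.7-fold, 8.34-fold and 2.64-fold higher at 12 weeks, and Itih5 at least 9.62-fold higher. At 60 against 0 weeks Timp3 was at least 3.35-fold, Slpi 1.98-fold and Timp2 1.38-fold lower and Cst6 (cystatin M) 3.35-fold higher. From 12 to 60 weeks Timp3 was at least 72.7-fold, Itih5 at least 9.83-fold, Stfa3 7.68-fold and Slpi 5.21-fold lower. The limma adjusted p of these genes was at most 0.022.

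Several serpins described here are known from other cell types, and markers of those types are given beside them. Of 10 hepatocyte markers 4 were tested, and Alb, Ttr, Apoa1, Ahsg, Fgb and Fgg were above background on no array, also at 12 weeks where Serpind1 was well above it. Tat, tyrosine aminotransferase, was 2.23-fold higher at 12 than at 0 weeks (limma adjusted p = 0.0282) and 2.26-fold lower at 60 than at 12 weeks (limma adjusted p = 0.0286). Its SD at 12 weeks was 0.83. Apoa2 was 1.39-fold lower at 12 weeks and 1.45-fold lower at 60 weeks than at 0 weeks, and Tat and Apoa2 were the called members. Fga was above background on at least 2 arrays at 0 weeks but not at 12 or 60 weeks. A summed level adds the linear signals of different probes, so bright probes weigh most in it. The hepatocyte list's summed level ran from 2.54 to 2.70 at 0 weeks, 2.11 to 2.45 at 12 weeks and 2.06 to 2.22 at 60 weeks. Of 12 leukocyte markers on the array 6 were tested, Ptprc (CD45), Lyz2 and Mpo being above background on no array. Of the 6, 1 was higher and 1 lower at 12 than at 0 weeks (19.1% and 22.7% of all genes), with a median change of 0.02. At 60 against 0 weeks 1 was higher and 2 lower (16.7% and 16.1%), with a median of -0.04. Between 12 and 60 weeks 1 was lower (17.6%). At 12 and 60 weeks Cd14 was 1.72-fold and 1.67-fold higher and Elane 1.74-fold and 1.91-fold lower, and Csf1r was 1.29-fold lower at 60 weeks (limma adjusted p at most 0.0169). The summed leukocyte level ran from 5.17 to 5.42 at 0 weeks, 5.71 to 6.15 at 12 weeks and 5.74 to 5.96 at 60 weeks. Of 12 fibroblast markers 3 were tested, and Dcn, Lum, Pdgfra and Pdgfrb were above background on no array; Col1a1, given above, was the member called. Their summed level ran from -1.56 to -1.18, -2.02 to -1.58 and -1.59 to -1.18. Of 7 endothelial markers 4 were tested, with Cdh5, Tek and Emcn on no array and a summed level of 3.11 to 3.46, 2.80 to 3.18 and 3.13 to 3.52. Vwf was at least 7.06-fold higher at 60 than at 0 weeks (limma adjusted p = 0.000418). Esam was called lower at 60 than at 0 weeks (limma adjusted p = 0.0444). Its means of -5.29 ± 0.16 at 0 weeks and -6.71 ± 0.21 at 60 weeks lay below background in both groups, so no fold is given.

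Stratified squamous epithelium, where Serpinb5, Serpinb7 and Serpinb2 are expressed, was also read. Of its 17 markers 11 were tested, with 6 higher and 2 lower at 12 than at 0 weeks (19.1% and 22.7% of all genes) and 2 and 3 at 60 against 0 weeks (16.7% and 16.1%). At 60 against 12 weeks 5 were lower (17.6%). Their summed level ran from 6.62 to 6.78 at 0 weeks, 6.38 to 6.51 at 12 weeks and 5.86 to 6.0 at 60 weeks, and Krt1, Sprr1b and Sprr3 were above background on no array. The 6 higher at 12 weeks were Krt6a (at least 10.9-fold), Sprr1a (5.24-fold), Lor (5.02-fold), Krt5 (2.95-fold), Krt4 (2.55-fold) and Krt10 (1.20-fold). The 2 lower were Krt14 (3.69-fold) and Pkp1, a desmosome protein (3.47-fold). The limma adjusted p of these markers was at most 0.044. The sum was lower at 12 weeks although 6 of the 8 called markers were higher. Pkp1 stood at 6.19 ± 0.13 at 0 weeks and 4.39 ± 0.27 at 12 weeks. The part of these cell types in the serpin changes was not tested, and fewer cells of a type and less RNA per cell cannot be told apart in these bulk samples.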

How the data were processed

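RNA of 9 mouse colon organoid samples was hybridised to single-colour (Cy3) arrays. Per the file headers, the authors quantified them with Agilent Feature Extraction 10.7.3.1 on a design built on mm9:NCBI37:Jul2007, and the deposited intensity of each spot is background-subtracted and not scaled between arrays. The authors' deposited value table holds a linear signal for 42530 probes that equals the intensity divided by 1 constant per array; it was used as an alternative, and 0 of its columns were left unmatched. Its column medians were 0.0668, 0.0719, 0.0705, 0.0619, 0.0681, 0.0733, 0.0673, 0.0695 and 0.0582 in the order of groups and replicates. Each constant was 0.993 to 0.999 times that array's 75th percentile as used here, so the scaling of this alternative is close to the main one. How the authors derived the constants is unknown.

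Outlier spots (117 to 163 of 59305 per array) were treated as missing, replicate spots were averaged by probe, and from each log2 intensity that of the array's 75th percentile (55681 probes, controls left out) was subtracted. A probe counted as above background on an array by the majority call of its spots, ties counting as above, and 0 spots were saturated. Probes were named through their RefSeq accession: 27235 had 1 symbol, 0 several and 28446 none. Where a gene had several probes that passed, the one of highest mean level stood for it. Group means were fitted with limma 3.58.1 (lmFit, eBayes) in R 4.3.3 over all 9 arrays and 14037 genes, two-sided, without a block. The scripts were tested on simulated data. Gene order came from RefSeq GRCm38.p6, and 49 of the 59 serpin genes had a promoter there.

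The serpin genes, the partner and marker lists and the tests were chosen with earlier results of these data known. Results for 1 serpin gene and 1 marker are not reported here; that serpin is in no count of serpins, and every serpin counted is named. A serpin called with an absolute log2 change of at least 1, or above background in 1 group and on no array of another, is given on all 9 arrays, and each partner list by up to 4 called members per comparison in order of adjusted p; Serpinb9, Serpina1c and the undetected list members named were added after their values were seen. The labels do not say whether replicates are separate animals or cultures, so p-values measure the spread between these arrays, and 3 arrays per group limit the precision. The alternatives were normexp (offset 50) on median spot and background signals, since mean signals were not used here; quantile scaling; the percentile over probes above background on all 9 arrays; no filter and a stricter filter; the mean of all probes of a gene; the value table; 2 groups per fit; the replicate number or slide row as a block; the first slide alone; and leaving out each array. The first slide lacks only 60 weeks replicate 3, so its fit is the same as the fit without that array. Counts of alternatives include both. Probe sequences and protein sequences were not used here.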

Additional observations from a re-analysis of the deposited data

Results flagged for a closer look

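Serpinb2 differed between the treated groups: against the same 0 weeks arrays it was called higher at 12 weeks and lower at 60 weeks, and the direct test of the difference, 60 against 12 weeks, gave -3.53 on the log2 scale (limma adjusted p = 7.15e-05), a call that held in all 18 alternatives run for it. The fall below 0 weeks held in only 9 of them.

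Signal also appeared on single arrays for genes that were not tested, while all 0 weeks arrays were below background. Serpinb9g was well above background on 60 weeks replicate 1 alone, at a level of -4.10. Serpinc1 was so on 12 weeks replicate 1 alone, at -3.98, and Serping1 on 12 weeks replicate 2 alone, at -4.23. A single array gives no replicate check of these readings.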

How the results depend on the processing

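Of 28 serpin changes called, 16 stayed called in every alternative run and 12 were lost in at least 1. Of 56 not called, 19 were called with the same sign in at least 1, and Serpinb6a was called with the opposite sign. Calls of Serpinb7, Serpina9, Serpinb10, Serpinb11 and Serpind1 were lost in none. Under the stricter filter 5 serpins (of 21 tested) were called at 60 against 12 weeks, as with the 2 groups alone (5) and with slide row as a block (5), against 9. Over all genes the stricter filter called 4840 of 12237 there, and the 2 groups alone 3748 of 14037. With the deposited value table, where 18 were tested, 6, 3 and 6 were called in the comparisons 12 against 0, 60 against 0 and 60 against 12 weeks, against 12, 7 and 9. Over all genes that table gave 4975, 3874 and 4463 of 12196, against 5861, 4598 and 5379 of 14037. With slide row as a block 4 serpins were called at 60 against 0 weeks, and over all genes 1392 and 3469 at 60 against 0 and 60 against 12 weeks, against 4598 and 5379. Leaving out each array gave 10 to 15, 4 to 9 and 5 to 12 serpins, and 4229 to 7405, 3195 to 6021 and 3625 to 7075 genes; counts moved by over 1.5 times without 0 weeks replicate 2 or 3 at 60 against 0 weeks, and without those or 60 weeks replicate 1 or 2 at 60 against 12 weeks. The cause of these moves was not tested, beside the fewer genes or arrays that the filter, the table and the omissions leave. Reversed was Serpinb6a at 12 against 0 weeks, -0.05 and not called in the main scaling. With quantile scaling it was 0.34 and called (limma adjusted p = 0.0253). Serpinb2 at 60 against 0 weeks also reversed, to 0.10 with the slide row as a block. Deviations from the group means correlated at -0.08 to 0.20 for same-numbered arrays of different groups and at -0.24 to 0.16 for differently numbered ones. These ranges overlap widely, and so few arrays cannot settle whether the numbers pair them. With the replicate number as a block 15, 6 and 9 serpins and 5796, 4452 and 5246 genes were called. Signal over background limits the 31 untested genes and the 4 given as bounds.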
